A study of Homo sapiens with 2 samples.

Results

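The genes described here encode the machinery that brings new proteins into the endoplasmic reticulum (ER), folds them there and removes those that fail to fold. The list held 56 genes, and a gene entered with a value when the platform annotation gave it a probe set that names no other gene. That was the case for 48 of the 56, out of 14232 genes with such a value on the array. They were compared between SUDHL6 and HT, established human lines of diffuse large B cell lymphoma, a tumour of mature B cells. Each line was profiled on 1 Affymetrix exon array from total RNA of untreated cells in RPMI medium with serum and antibiotics. The series belongs to work on a small-molecule inhibitor of the chromatin complex PRC2, but neither culture had received it.

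Secretory and membrane proteins enter the ER through the SEC61 channel, where a signal peptidase cuts off the leader and chaperones, lectins and disulfide isomerases fold the chain. Misfolded chains are sent back to the cytosol for degradation. When unfolded chains build up, the sensors encoded by ERN1 (IRE1), EIF2AK3 (PERK) and ATF6 start the unfolded protein response, which raises chaperone and degradation genes through the transcription factors XBP1 and ATF6 and lowers protein synthesis through PERK. B cells enlarge this machinery when they turn into antibody-secreting plasma cells, and XBP1 is required for that step.

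All values are RMA log2 expression values, and every difference is SUDHL6 minus HT on that scale. Of 10 B cell markers, 9 had a value and all 9 lay at or above the dim level, the 95th percentile of 225 olfactory receptor genes (3.81 in SUDHL6 and 4.11 in HT). Of the T cell, myeloid and epithelial markers with a value, 1 of 5, 1 of 4 and 2 of 5 did. A gene counted as different if the lines were at least 1 apart and the line with more RNA was at or above its own dim level. With 1 array per line, no spread between cultures is known, so nothing here was tested and the number of arrays limits the precision of each value.

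Most genes of the ER machinery stood at similar levels in both lines, and 8 differed by at least 1. EIF2AK3 and EDEM1 were higher in SUDHL6, while SEC11C, HYOU1, HSPA5, CALR, SDF2L1 and SRP72 were higher in HT. The count of 2 of 48 for SUDHL6 (4.17%) was close to the 3.50% among all genes with a value, and the count of 6 of 48 for HT (12.5%) stood above the 4.62% among all genes. Over genes at or above the dim level, the shares were 2 of 44 (4.55%) against 5.30% of 9405 genes for SUDHL6, and 6 of 44 (13.6%) against 6.99% for HT. These shares rest on few genes and describe this pair of arrays. A value from a whole culture cannot tell fewer cells with the RNA apart from less RNA per cell.

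A lower threshold counts the genes that differed by at least 1 again, so it does not show the smaller differences on their own. At a difference of at least 0.5, 6 members were higher in SUDHL6 (12.5%, against 8.66% of all genes). In HT, 12 were higher (25%, against 12.9%). More of all genes than of the members were dim (4827 of 14232 against 4 of 48), and a dim gene cannot be counted. Over the 44 members at or above the dim level, the shares were 13.6% for SUDHL6 and 27.3% for HT. The same counts over all such genes were 1233 and 1835 of 9405. The median difference of the 48 was -0.20, against -0.04 over all genes with a value, and 32 of the 48 (66.7%) had the higher value in HT, against 52.9% of all genes. The size of the median depends on the scaling: over the 44 members at or above the dim level it was -0.20 as deposited, -0.090 after quantile normalization, -0.10 after loess and -0.071 after subtraction of the median of neighbouring genes. The member differences ran from -1.63 to 2.35, with 25th and 75th percentiles of -0.58 and 0.13.

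**Figure D1:**
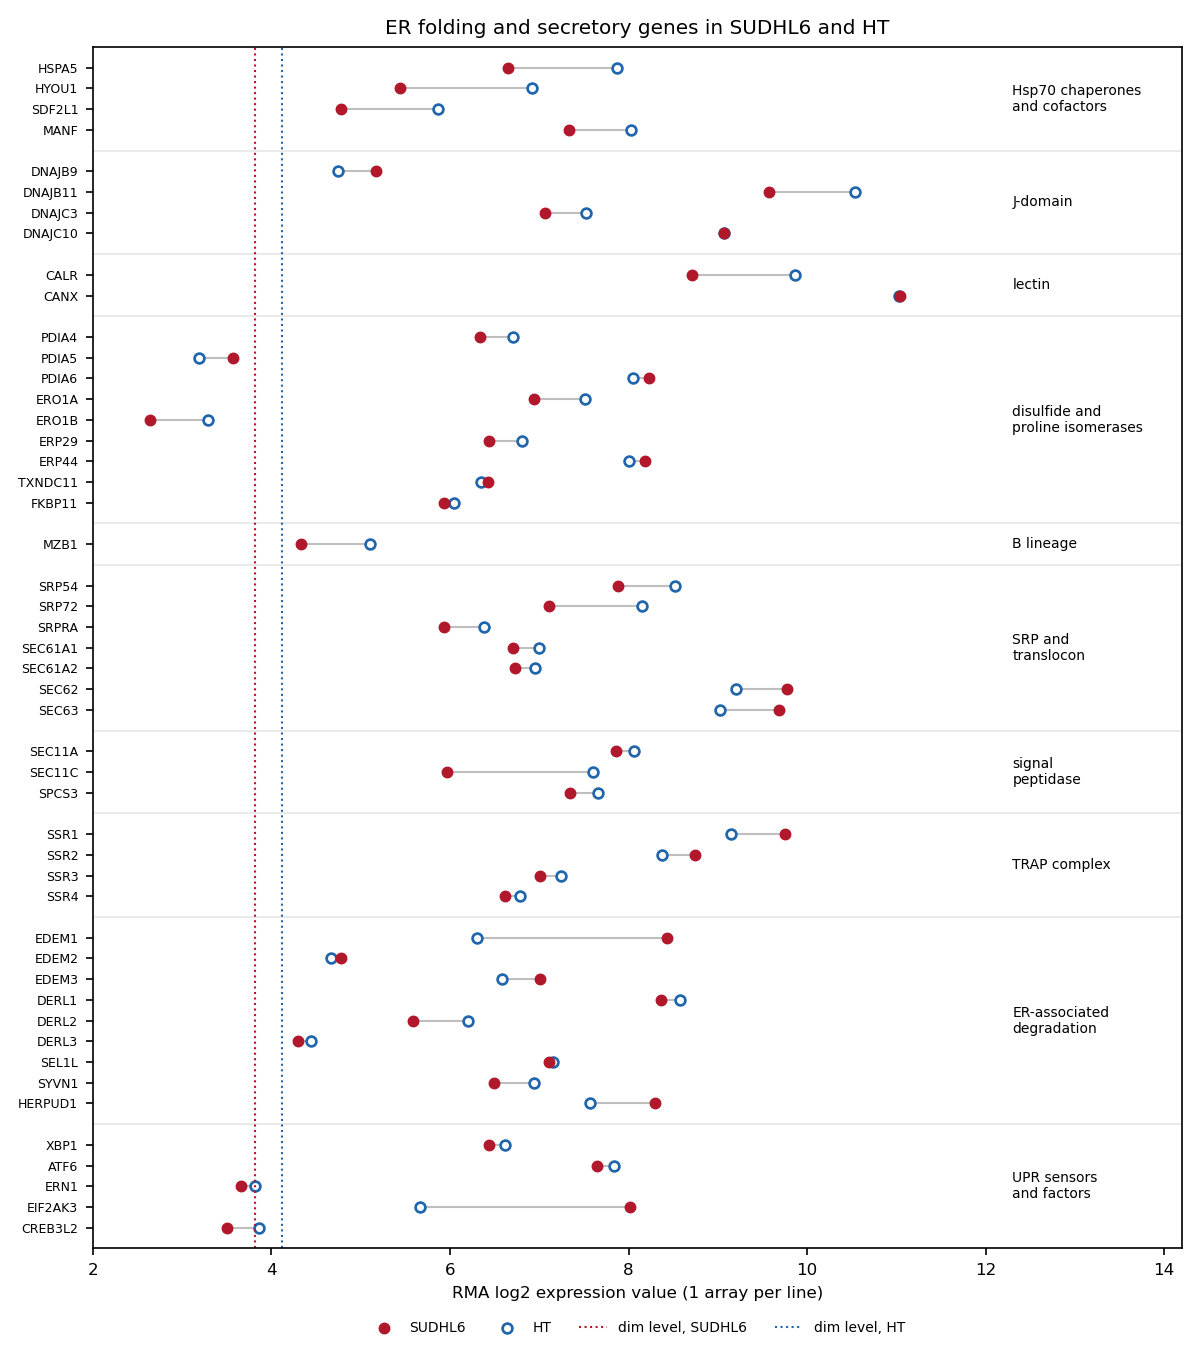
RMA log2 expression value of each of the 48 ER genes in SUDHL6 (filled red points) and HT (open blue points), 1 array per line, grouped by role, with the dim level of each line as a dotted line. The widest gaps are those of EIF2AK3 and EDEM1, with SUDHL6 to the right, and of SEC11C and HYOU1, with HT to the right; the values shown for PDIA5, ERO1B, ERN1 and CREB3L2 are dim in both, while a probe set that PDIA5 shares with SEC22A, not drawn, is above the dim level.

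The 4 genes for Hsp70 chaperones of the ER and their cofactors all had lower values in SUDHL6. Of these, 3 passed the threshold, against 4.62% of all genes higher in HT. Once the median of the 10 nearest genes on the chromosome was subtracted, HYOU1 (-0.75) and SDF2L1 (-0.77) no longer passed it, and HSPA5 (-1.27) still did. HSPA5 (BiP), the main Hsp70 of the ER, which also holds the stress sensors inactive, stood at 6.65 in SUDHL6 and 7.87 in HT (difference -1.22, 2.32-fold). HYOU1, an Hsp70-like exchange factor for BiP, stood at 5.44 in SUDHL6 and 6.92 in HT, 2.79-fold higher in HT. SDF2L1, a cofactor in the BiP chaperone cycle, stood at 4.78 in SUDHL6 and 5.86 in HT, 2.11-fold higher in HT. The secreted BiP-binding factor MANF went the same way at a smaller size, with 7.33 in SUDHL6 and 8.03 in HT. The median difference of the 4 was -1.15. Among genes at or above the dim level, 6.11% differed by at least as much as HYOU1, 8.85% as HSPA5 and 10.9% as SDF2L1, so differences of these sizes were not rare on the array.

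HSP90B1 (GRP94), the Hsp90 of the ER, has no probe set of its own. A probe set shared with the pseudogene HSP90B3P stood at 10.36 in SUDHL6 and 11.69 in HT (difference -1.33). Another, which also names LRRC28 and the pseudogene HSP90B2P, stood at 6.38 in SUDHL6 and 5.81 in HT (difference 0.57). These probe sets point opposite ways and each names other genes, so HSP90B1 was given no direction here. With probe sets naming several genes included, the first, which has the higher mean, counts HSP90B1 as higher in HT.

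Among the J-domain proteins, which hand clients to BiP, only DNAJB11 came near the threshold. DNAJB11 (ERdj3), a soluble partner of BiP that binds unfolded chains, stood at 9.57 in SUDHL6 and 10.53 in HT (difference -0.96). DNAJC3 (p58IPK), which restrains PERK, had 7.06 in SUDHL6 and 7.53 in HT. DNAJB9 (ERdj4), a target of XBP1 that keeps IRE1 inactive, had the opposite sign, with 5.17 in SUDHL6 and 4.75 in HT, and the disulfide reductase DNAJC10 had 9.07 in both. The 4 J-domain genes therefore had 2 differences of each sign.

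The paired lectin chaperones differed from each other. CALR (calreticulin), the soluble lectin that binds glycoproteins in the ER lumen, stood at 8.71 in SUDHL6 and 9.87 in HT, 2.23-fold higher in HT. CANX (calnexin), its membrane-bound relative, stood at 11.04 in SUDHL6 and 11.02 in HT. PDIA3, the isomerase that works with both, was covered only by a probe set that also names CATSPER2 and its pseudogene, at 7.24 in SUDHL6 and 7.36 in HT.

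Promoter sequences are given for some ER genes because 4 of the 6 genes higher in HT carry a known unfolded protein response element there. Such an element was found for 18 of the 51 listed genes with a promoter window (35.3%), these 4 included. The share was 2.55% of all genes with a window. Windows from 250 bases before to 50 bases after the start site, from RefSeq on GRCh38.p14, were searched on both strands. The ER stress response element (ERSE) was taken as CCAAT and CCACG with 9 bases between them, ERSE-II as ATTGG and CCACG with 1 base between them, and the unfolded protein response element (UPRE) as TGACGTG. Windows were found for 51 of the 56 genes, several for some genes. ERSE was found for 7 of the 51 genes (13.7%), against 25 of all 27305 genes with a window (0.0916%), and ERSE-II for 3 (5.88%), against 19 (0.0696%). UPRE was found for 9 of the 51 (17.6%), against 2.40% of all genes. ERSE motifs were first defined in chaperone promoters such as that of HSPA5, so their presence here is not an independent finding.

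The first 4 stretches belong to genes higher in HT. The other 4 belong to CANX, XBP1 and HERPUD1, which differed by less than 1, and to HSP90B1, which has no probe set of its own. Stretches of PDIA6 and ERO1B, which also carry ERSE, and of genes with UPRE alone are not shown. Each reads 5′ to 3′ along its gene, upstream of the start site, with the motif bases in capitals.
HSPA5, chr9:125241376-125241424, minus strand, ERSE: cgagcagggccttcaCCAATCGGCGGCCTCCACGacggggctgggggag
CALR, chr19:12938369-12938417, plus strand, ERSE in reverse: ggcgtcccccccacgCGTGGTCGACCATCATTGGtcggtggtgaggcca
SDF2L1, chr22:21642099-21642139, plus strand, ERSE-II in reverse: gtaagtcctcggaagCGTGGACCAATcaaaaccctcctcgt
HYOU1, chr11:119057259-119057408, minus strand, UPRE overlapping an ERSE-II in reverse, and a further ERSE-II in reverse: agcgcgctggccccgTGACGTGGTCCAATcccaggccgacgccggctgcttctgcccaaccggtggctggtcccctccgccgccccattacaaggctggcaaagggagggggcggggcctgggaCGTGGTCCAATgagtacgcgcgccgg
HSP90B1, chr12:103930201-103930354, plus strand, an ERSE in each orientation: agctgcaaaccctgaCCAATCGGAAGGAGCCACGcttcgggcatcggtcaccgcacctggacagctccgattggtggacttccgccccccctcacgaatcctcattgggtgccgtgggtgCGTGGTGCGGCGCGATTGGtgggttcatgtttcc
CANX, chr5:179698763-179698811, plus strand, ERSE: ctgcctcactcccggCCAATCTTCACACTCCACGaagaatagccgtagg
XBP1, chr22:28800588-28800636, minus strand, ERSE: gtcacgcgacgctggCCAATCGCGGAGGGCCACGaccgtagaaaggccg
HERPUD1, chr16:56932010-56932050, plus strand, ERSE-II: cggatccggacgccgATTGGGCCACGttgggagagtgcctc

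Of the 9 ER genes with ERSE or ERSE-II and a value of their own, 4 were higher in HT by at least 1. These were HSPA5, CALR, HYOU1 and SDF2L1, the same genes for which the motifs were shown, so the count is not separate support. The share higher in HT was 12.5% among the 48 ER genes and 4.62% among all genes with a value. HYOU1 and SDF2L1 did not keep this call once the neighbour median was subtracted. A further 4 differed by less than 1 (XBP1, CANX, PDIA6 and HERPUD1) and 1 was dim (ERO1B). None of the 9 was higher in SUDHL6 by 1 or more. The 9 differences ran from -1.48 for HYOU1 to 0.73 for HERPUD1, with a median of -0.66. Across the 19 genes outside the list with either motif and a value, 0 were higher in SUDHL6 and 1 in HT (SETD3, a difference of -1.01). The shares among all genes were 3.50% and 4.62%. A further 10 differed by less than 1, 8 were dim, and the median difference was -0.05. Those 10 include CRELD2 (-0.30), SERP1 (0.02), FICD (0.10) and ALG12 (0.22), which carry ERSE. Genes outside the list can also act in the ER. The ER genes with UPRE alone and a value were DNAJC10, FKBP11, SEC61A1, SEC62, SSR3, SSR4 and TXNDC11. Each of them differed by less than 1. None of the 3 motifs was found in the windows of SEC11C, SRP72, EDEM1 and EIF2AK3, which says only that these letters are not there.

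None of the 9 disulfide and proline isomerase genes with a value differed by 1 or more, and their median was -0.11. With array-wide shares of 3.50% toward SUDHL6 and 4.62% toward HT, 0 of 9 does not set them apart. PDIA6, a disulfide isomerase, stood at 8.23 in SUDHL6 and 8.05 in HT, and PDIA4, a larger relative, at 6.34 in SUDHL6 and 6.71 in HT. ERO1A (listed as ERO1L), the oxidase that recharges the isomerases, had 6.94 in SUDHL6 and 7.51 in HT (difference -0.57). ERP44, which retrieves unassembled proteins from the Golgi, had 8.19 in SUDHL6 and 8.01 in HT, and ERP29, a related folding factor, had 6.44 in SUDHL6 and 6.80 in HT.

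The remaining isomerase genes had probe sets that differed among themselves or low values. The thioredoxin-domain gene TXNDC11 had 6.43 in SUDHL6 and 6.35 in HT; its second probe set had 4.33 in SUDHL6 and 3.90 in HT. A probe set shared with SNN pointed the opposite way, at 6.15 in SUDHL6 and 7.00 in HT (difference -0.85). FKBP11, a proline isomerase of secretory cells, had 5.94 in SUDHL6 and 6.04 in HT. PDIA5 (3.57 in SUDHL6 and 3.19 in HT) and ERO1B (listed as ERO1LB, 2.64 in SUDHL6 and 3.29 in HT) were dim in both. A further probe set that names PDIA5 together with SEC22A was not dim, at 5.99 in SUDHL6 and 5.39 in HT, and cannot be assigned to either gene. P4HB and TXNDC5 have no value here. MZB1, an ER protein of B and plasma cells that aids antibody assembly, stood at 4.33 in SUDHL6 and 5.10 in HT (difference -0.77).

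**Figure D2:**
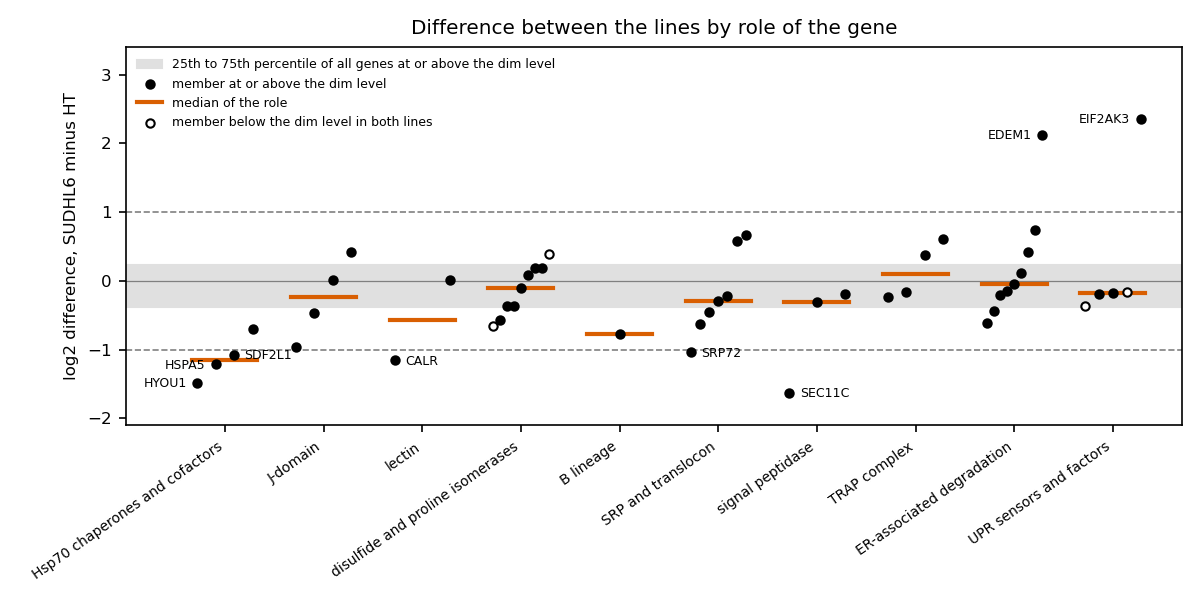
Log2 difference, SUDHL6 minus HT, of each of the 48 ER genes (points) by role, with the median of each role (orange bar), the middle 50% of genes at or above the dim level (grey band) and dashed lines at 1 and -1. The 4 genes of the Hsp70 role all lie below 0 with a median of -1.15, whereas EDEM1 (2.12) and EIF2AK3 (2.35) lie far above the other genes of their roles.

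Targeting and translocation genes were split by pathway step. The signal recognition particle (SRP) brings ribosomes to the ER, and the genes of SRP and its receptor had lower values in SUDHL6. SRP72, a scaffold protein of SRP, stood at 7.11 in SUDHL6 and 8.15 in HT, 2.06-fold higher in HT. SRP54, which binds the signal peptide, had 7.89 in SUDHL6 and 8.51 in HT, and the receptor subunit SRPRA (listed as SRPR) had 5.93 in SUDHL6 and 6.38 in HT. The count of SRP72 depends on the scaling, since its difference of -1.04 was -0.91 after quantile normalization.

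At the channel itself the values lay closer together. SEC61A1, the pore subunit, had 6.71 in SUDHL6 and 6.99 in HT, and its close relative SEC61A2 had 6.73 in SUDHL6 and 6.96 in HT. SEC62 and SEC63, which assist the import of completed chains, had the opposite sign. SEC62 stood at 9.78 in SUDHL6 and 9.20 in HT, and a second probe set of SEC62 at 5.70 in SUDHL6 and 4.71 in HT, while SEC63 stood at 9.69 in SUDHL6 and 9.02 in HT. SEC61B and SEC61G have no value here. Among the 7 genes of SRP and translocon with a value, 1 was higher in HT, against 4.62% of all genes. The other 6 differed by less than 1.

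The signal peptidase genes held the largest difference toward HT among the 48. SEC11C, 1 of the alternative catalytic subunits that cut signal peptides, stood at 5.97 in SUDHL6 and 7.60 in HT (difference -1.63, 3.10-fold), which ranked 238 among the differences toward HT of 9405 genes. Its counterpart SEC11A stood at 7.86 in SUDHL6 and 8.06 in HT (difference -0.20). SPCS3, an accessory subunit, had 7.35 in SUDHL6 and 7.65 in HT. SPCS1 shares its probe set with GLT8D1 (8.51 in SUDHL6 and 9.29 in HT), and SPCS2 has no value here. The translocon-associated complex helps some chains enter the channel. It had no member past the threshold, which 3.50% of all genes passed toward SUDHL6 and 4.62% toward HT. SSR1 had 9.76 in SUDHL6 and 9.15 in HT, and SSR2 had 8.75 in SUDHL6 and 8.38 in HT. With the opposite sign, SSR3 had 7.00 in SUDHL6 and 7.24 in HT, and SSR4 had 6.61 in SUDHL6 and 6.78 in HT.

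ER-associated degradation held a single large difference. EDEM1, a mannosidase-like protein that marks misfolded glycoproteins for removal and a target of XBP1, stood at 8.43 in SUDHL6 and 6.31 in HT (difference 2.12, 4.35-fold). Its relatives were close between the lines, with EDEM3 at 7.01 in SUDHL6 and 6.59 in HT and EDEM2 at 4.78 in SUDHL6 and 4.67 in HT. A probe set that EDEM2 shares with EIF6 had 6.04 in SUDHL6 and 6.11 in HT. HERPUD1, a stress-induced scaffold of the degradation complex, had 8.30 in SUDHL6 and 7.56 in HT (difference 0.73). Of the 9 degradation genes, 4 had the higher value in SUDHL6 and 5 in HT, and the median was -0.04.

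Few genes of the array passed the threshold (3.50% toward SUDHL6 and 4.62% toward HT), and no gene of the degradation complex core or of the derlins did. SEL1L, its adaptor, stood at 7.11 in SUDHL6 and 7.16 in HT, and SYVN1 (HRD1), its ubiquitin ligase, at 6.50 in SUDHL6 and 6.94 in HT. The derlins, membrane proteins of the exit channel, had differences of -0.20 for DERL1 (8.37 in SUDHL6 and 8.57 in HT), -0.61 for DERL2 (5.59 in SUDHL6 and 6.20 in HT) and -0.15 for DERL3 (4.30 in SUDHL6 and 4.45 in HT).

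Of the stress sensors, EIF2AK3 alone differed by at least 1. EIF2AK3 (PERK), the kinase that slows translation under ER stress, stood at 8.01 in SUDHL6 and 5.66 in HT (difference 2.35, 5.11-fold). It ranked 121 and EDEM1 ranked 154 among the differences toward SUDHL6 of 9405 genes, and 2.51% and 3.06% of these genes differed by at least as much in either direction. ATF6 stood at 7.65 in SUDHL6 and 7.84 in HT. ERN1, at 3.66 in SUDHL6 and 3.82 in HT, and the related factor gene CREB3L2, at 3.50 in SUDHL6 and 3.86 in HT, were both dim, so the array gives no order for them. XBP1 stood at 6.43 in SUDHL6 and 6.61 in HT. The value is a total for the gene, and spliced XBP1 messenger RNA, the active form, cannot be told apart from the unspliced form in it.

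Neighbouring genes on the chromosome leaned toward HT around 3 of the genes higher in HT, and also around some genes without a call. The median difference of the 10 nearest genes at or above the dim level was -0.73 around HYOU1 on chromosome 11, -0.60 around SRP72 on chromosome 4 and -0.31 around SDF2L1 on chromosome 22. It was 0.05 around HSPA5, 0.01 around CALR and 0.21 around SEC11C, and 0.05 around EDEM1 and -0.18 around EIF2AK3. Among ER genes without a call, it was -0.92 around ERO1A, -0.53 around ERP29 and -0.50 around DNAJC10, for example. After subtraction, HYOU1 (-0.75), SDF2L1 (-0.77) and SRP72 (-0.44) differed by less than 1, and 3 of the 48 genes (6.25%) remained higher in HT, namely HSPA5, CALR and SEC11C, against 3.50% of 14194 genes. EDEM1 (2.07) and EIF2AK3 (2.53) kept their call. Copy number was not measured, and its part in these values was not tested.

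**Figure D3:**
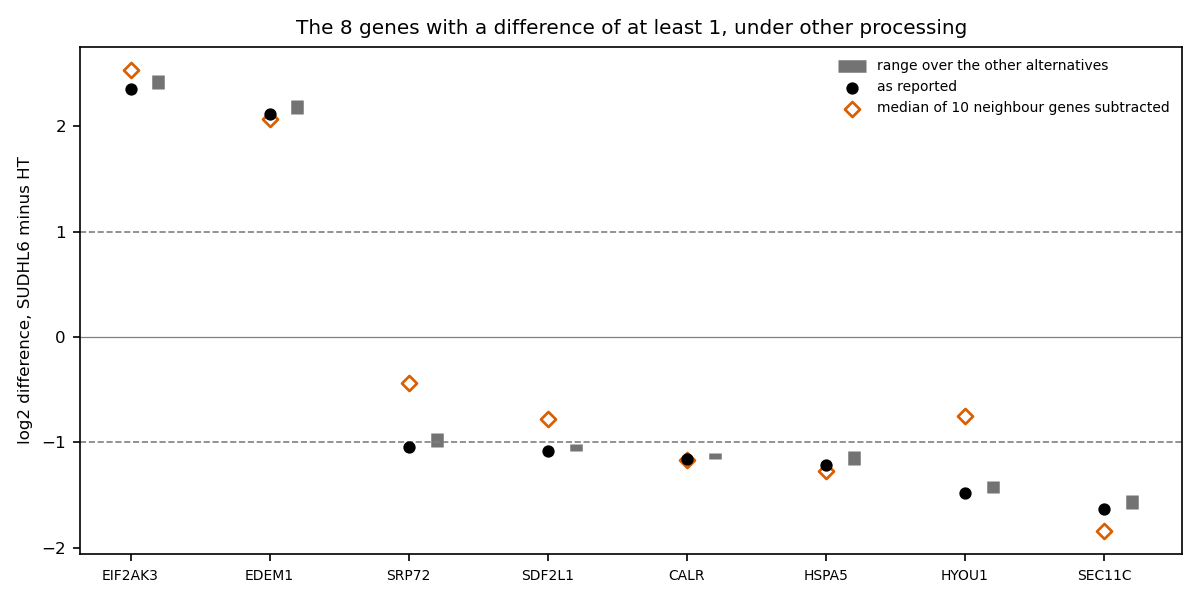
Log2 difference, SUDHL6 minus HT, of the 8 ER genes with a difference of at least 1, as reported (black points), after the median of 10 neighbouring genes was subtracted (open diamonds), and over the other 9 alternatives for a single gene (grey bars). Subtraction brings SRP72, SDF2L1 and HYOU1 inside the dashed line at -1, while EIF2AK3, EDEM1, CALR, HSPA5 and SEC11C stay outside.

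Other steps of the secretory pathway leaned toward HT in some lists and were level in others. The oligosaccharyltransferase attaches glycans to incoming chains, and all 9 of its genes at or above the dim level had the lower value in SUDHL6, although only MAGT1, a subunit linked to disulfide exchange, passed the threshold (7.76 in SUDHL6 and 8.77 in HT). The median was -0.42 over the 10 genes with a value, of which TUSC3 was dim in both lines. Of 10 further SRP and translocation genes, 9 had the lower value in SUDHL6, with a median of -0.55, and TRAM2, a relative of the translocating chain protein TRAM1, passed it (5.47 in SUDHL6 and 6.59 in HT). Over all genes, 52.9% had the lower value in SUDHL6 and the median was -0.04.

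Vesicle coats followed a similar direction with fewer genes. In the COPII coat, which carries cargo out of the ER, 2 of 10 genes were higher in HT (against 4.62% of all genes). None was higher in SUDHL6 by 1 or more (against 3.50%), and the median was -0.50. The 2 were SEC24B, a cargo adaptor (6.44 in SUDHL6 and 8.09 in HT), and SAR1A, the GTPase that starts the coat (8.16 in SUDHL6 and 9.34 in HT). In the COPI coat, ARCN1, a coat subunit, was higher in HT (8.57 in SUDHL6 and 9.95 in HT), and the median over 7 genes was -0.16. Among cargo receptors, MCFD2, a partner of LMAN1, was higher in SUDHL6 (7.12 in SUDHL6 and 5.72 in HT), and the median over 9 genes was -0.12. The 9 glycan-trimming genes had 0 calls and a median of -0.03, with the folding sensor UGGT1 at 7.52 in SUDHL6 and 6.97 in HT and the mannosidase gene MAN1A2 at 7.08 in SUDHL6 and 7.00 in HT.

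Further degradation genes differed both ways. UFD1, a cofactor of the ATPase that pulls chains into the cytosol, was 4.03-fold higher in HT (8.05 in SUDHL6 and 10.06 in HT). UBE2J1, a ubiquitin-conjugating enzyme of the ER membrane, was 3.41-fold higher in SUDHL6 (10.33 in SUDHL6 and 8.56 in HT). The other 10 genes with a value differed by less than 1. Over all 12 the median was -0.10, with 1 call each way. Among all genes, 3.50% were called toward SUDHL6 and 4.62% toward HT.

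Genes of the PERK and ATF4 arm differed by less than 1 in most cases. In the list of the PERK and ATF4 arm, 2 of 17 passed the threshold toward SUDHL6 (against 3.50% of all genes) and 0 toward HT (against 4.62%), and the median was 0.16. These 2 were PHGDH, an enzyme of serine synthesis (7.10 in SUDHL6 and 5.54 in HT), and the lipoprotein receptor gene VLDLR (4.92 in SUDHL6 and 2.76 in HT, or a fold of at least 1.75 against the dim level). ASNS, the asparagine synthetase gene, lay just under the threshold with 9.73 in SUDHL6 and 8.73 in HT. SLC7A11 lay just under it in the opposite direction, with 6.93 in SUDHL6 and 7.92 in HT. ATF4, the factor whose translation PERK favours, had 5.60 in SUDHL6 and 6.04 in HT. ASNS, SLC7A11 and ATF4 were chosen after their values were seen. RNA levels do not show ATF4 protein or PERK activity.

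Chaperones outside the ER had 0 genes with a difference of at least 1. Array-wide, that threshold was passed by 3.50% toward SUDHL6 and by 4.62% toward HT. A count of 0 in lists this short therefore does not set them apart from the ER genes. Differences ran from -0.96 to 0.56 in the cytosolic list and from -0.79 to 0.47 in the mitochondrial list. The median was -0.29 over 17 cytosolic chaperone genes, with HSPA8 at 12.14 in SUDHL6 and 12.43 in HT and HSP90AA1 at 11.00 in SUDHL6 and 10.98 in HT. It was -0.05 over 8 mitochondrial ones, with the chaperonin partner HSPE1 at 8.15 in SUDHL6 and 8.94 in HT and the protease component CLPX at 7.85 in SUDHL6 and 8.40 in HT. The cytosolic median thus lay further toward HT than the -0.20 of the ER genes, without a gene past the threshold.

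Plasma cell genes differed in both directions, more of them toward SUDHL6. IRF4, a transcription factor needed for plasma cells, stood at 6.65 in SUDHL6 and 3.93 in HT, which makes it higher in SUDHL6 by at least 5.79-fold. JCHAIN, the joining chain of secreted antibody, had 10.37 in SUDHL6 and 8.56 in HT, the surface enzyme gene CD38 had 8.83 in SUDHL6 and 7.37 in HT, and the survival receptor gene TNFRSF17 had 7.16 in SUDHL6 and 5.90 in HT. In the opposite direction, POU2AF1, a coactivator of B cell transcription, had 6.10 in SUDHL6 and 7.49 in HT (difference -1.39); it was named after its value was seen. PRDM1 (BLIMP1), the factor that drives plasma cell formation, was dim in both lines (3.39 in SUDHL6 and 3.35 in HT). Of 11 plasma cell genes with a value, 4 were higher in SUDHL6 (against 3.50% of all genes) and 1 in HT (against 4.62%), 7 had the higher value in SUDHL6, and the median was 0.19.

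**Figure D4:**
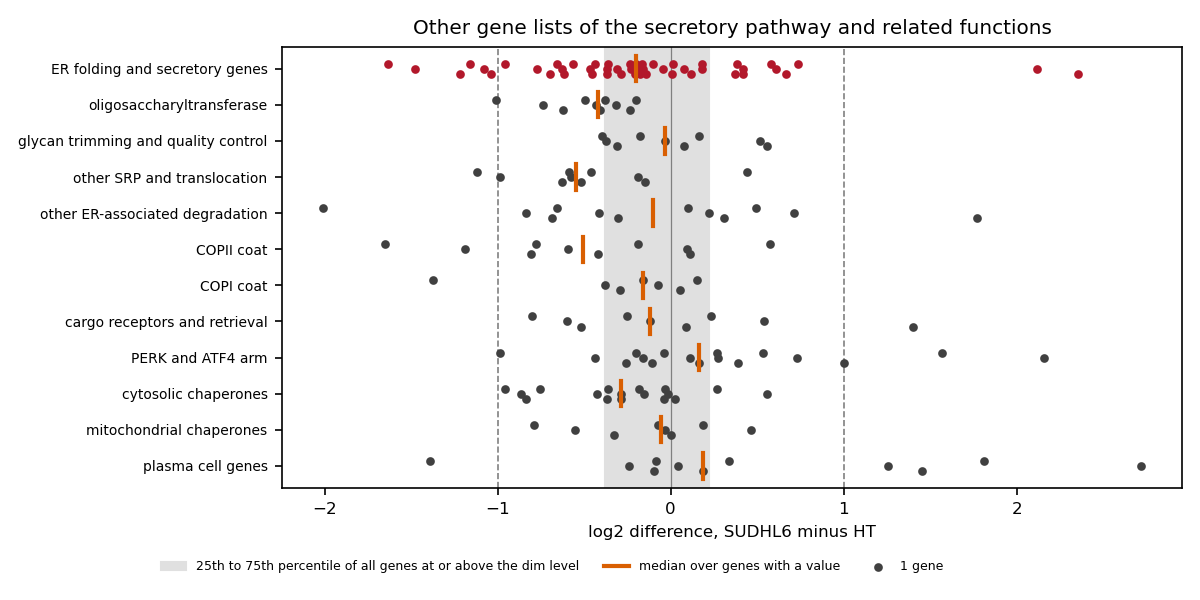
Log2 difference, SUDHL6 minus HT, of each gene (points) of the ER folding and secretory list (red, 48 genes) and of 11 further lists, with the median of each list (orange bar) and the middle 50% of genes at or above the dim level (grey band). The medians of the oligosaccharyltransferase, further SRP and translocation, and COPII lists lie between -0.55 and -0.42, and those of the PERK and ATF4 arm (0.16) and the plasma cell list (0.19) lie above 0.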

How the data were processed

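The deposited numbers are log2 values from RMA in the Affymetrix Expression Console, run by the authors per the submitters' processing notes. Versions, settings and build: not given in the sources used here. Genes were named through the platform annotation and updated to RefSeq symbols of GRCh38.p14, and a gene with several probe sets of its own took the one with the highest mean of both arrays. Of 56 members, 8 had no probe set of their own, and 3 were listed under older symbols. The dim level, the threshold of 1 and the folds (2 to the power of the difference, or against the dim level and written as "at least" where the lower value was below it) are as given with the results. Members, lists and thresholds were chosen with earlier results of these data known. The text names each member with a value. Of each other list it names up to 3 genes with the largest difference of at least 1, or else the 2 with the highest mean. JCHAIN, IRF4, PRDM1 and TNFRSF17 were added. ATF4, ASNS, SLC7A11, POU2AF1, TUSC3, SETD3, CRELD2, SERP1, FICD and ALG12 were picked with their values in view. The count rule was tested on simulated data, and the motif search on a made-up window with ERSE in each orientation. The search for ERSE-II and UPRE was not tested this way. Python 3.11.15, pandas 2.3.3 and statsmodels 0.14.6 were used. RefSeq lists pseudogenes of HSPA5, ERP29, SRP72, SEC63, SSR1, SSR4 and XBP1 among the members with a value, and the probes were not checked against these copies.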

Additional observations from a re-analysis of the deposited data

How the results depend on the processing

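A total of 12 alternatives were tried for the counts, and 10 for single genes and medians. The count of ER genes higher in SUDHL6 was 2 under 11 of the 12 alternatives. The number higher in HT was 6 as reported, 5 under quantile normalization, loess and centring, and 3 once the median of neighbouring genes was subtracted. It was 7 with probe sets naming several genes included, which added HSP90B1, and 7 at a difference of at least 0.8. With a difference of at least 0.5 in place of 1, the counts were 6 for SUDHL6 and 12 for HT by construction. The median difference of the genes at or above the dim level, -0.20 as reported, was -0.090 after quantile normalization, -0.10 after loess and -0.071 after neighbour subtraction, with medians over all genes of 0.0043, 0.0084 and 0.0018. Among single genes, 465 of the 480 recomputed values kept their call. Many of these could not move, since the alternatives on the dim level and on probe sets returned the same value for most genes. SRP72 fell below the threshold under quantile normalization and loess (-0.91 each), centring (-0.99) and neighbour subtraction (-0.44), and HYOU1 and SDF2L1 under neighbour subtraction. HSPA5, CALR, SEC11C, EDEM1 and EIF2AK3 kept their call under all 10 alternatives, with ranges of -1.27 to -1.09, -1.17 to -1.10, -1.84 to -1.50, 2.07 to 2.25 and 2.35 to 2.53. Only quantile normalization, loess, centring and neighbour subtraction changed the values of these genes. The remaining alternatives left them as they were and say nothing about their stability. With 1 array per line and no detection call, the error of values near the dim level is unknown.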
